A study of Arabidopsis thaliana with 9 samples.

Results

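In Arabidopsis thaliana suspension cells, 146 genes that gave a high signal at the start of a 12 h culture were at least 8-fold dimmer 12 h later, whether or not estrogen had been added. They were found by a rule on group means of log2 signal, the brightness of a gene's probe set on a log2 scale. A gene was taken when its probe set named that gene alone, its mean at 0 h was 7 or more, and both 12 h means were at least 3 lower. The rule was met by 160 of 5547 genes with a 0 h mean of 7 or more, or 2.88%, out of 16548 genes measured. Of these, 14 were set aside by the start of their symbol or by locus, which left the 146. Symbols of autophagy ATG8, SWEET, glutathione transferase and beta-glucosidase genes were among those set aside. A gene of such a family that was named by its locus alone could stay. Symbols starting with UGT were left out, for example, but AT5G49690 of the UDP-glycosyltransferase family stayed. The genes were thus chosen by their 0 h means and their differences from 0 h, which are given as a description, with no test.

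The cells were a suspension line, Alex, of the genetic background Col-O, shaken in the dark at 23°C. All 3 groups carried the same construct, estrogen-inducible LHW and T5L1-GFP, a pair of basic helix-loop-helix transcription factors of vascular development. The groups were cells after 12 h with 5 µM estrogen, cells after 12 h without estrogen and cells at 0 h, with 3 arrays each. No group held estrogen-treated cells without the inducible genes, so effects of estrogen, LHW and T5L1 cannot be told apart. Whether the replicates were separate cultures is not stated, so a p-value here reflects the spread among these arrays and that spread may be technical. The labels also do not say what happened to the medium at 0 h, so time in culture and any change of medium cannot be told apart.

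Plant cells that run short of sugar or age in culture turn on genes that recover carbon and nitrogen from proteins, lipids, cell walls and stored sugars. Many of the same genes are switched off again when sugar or fresh medium is supplied, and others answer to heat, cold, drought or low oxygen. Cultured cells have no tissue of their own, so genes of leaves, roots and seeds can all appear in one culture.

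LHW served as the check of induction, and T5L1 was not checked here. Its log2 signal was 10.72, 11.05 and 11.24 with estrogen, 8.72, 8.60 and 8.14 without it, and 8.60, 8.71 and 8.22 at 0 h, each in the order of replicates 1 to 3, which is kept throughout. All 3 arrays with estrogen lay above all 6 others, and the difference between the 12 h groups was 2.52 (SE 0.23, limma adjusted p = 0.00506). Replicate 3 stood apart from replicates 1 and 2 in all 3 groups: its array had the highest median over named genes in each (5.39 with estrogen, 5.36 without it and 5.40 at 0 h, against 5.06 to 5.18 on the other 6 arrays). Equal replicate 3 values in both 12 h groups occurred for 30.5% of all probe sets and for 10 of the 146 genes. They were absent in 9478 of the 16548 genes. Values of the third samples are therefore given separately where they differ.

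By the rule all were lower at 12 h, and 17 of the 146 still had a mean of 7 or more in both 12 h groups. Over the 146, mean log2 signals ran from 2.27 to 8.91 with estrogen (median 5.46), from 2.24 to 8.76 without it (median 5.31) and from 7.08 to 12.26 at 0 h (median 9.29). The medians over all 16548 genes were 5.21, 5.23 and 5.17 in the same order, so at 12 h the median of the 146 lay near the middle of all genes, at the 52.1 and 50.8 percentiles, against the 89.0 percentile at 0 h. The background rows of the array had a median of 4.20 on replicates 1 and 2. Replicate 3 did not enter that median, and its arrays are set beside the same 4.20 below. On replicates 1 and 2, 34 of the genes with estrogen and 31 without it lay below that median, 27 of them in both groups. So low a signal is not shown to be clear of background, which leaves the size of those differences uncertain. At 0 h none lay below that median, which the rule's limit of 7 on the 0 h mean all but fixed in advance. Of all genes, 41.3%, 41.0% and 41.1% lay below it in the 3 groups.

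**Figure D1:**
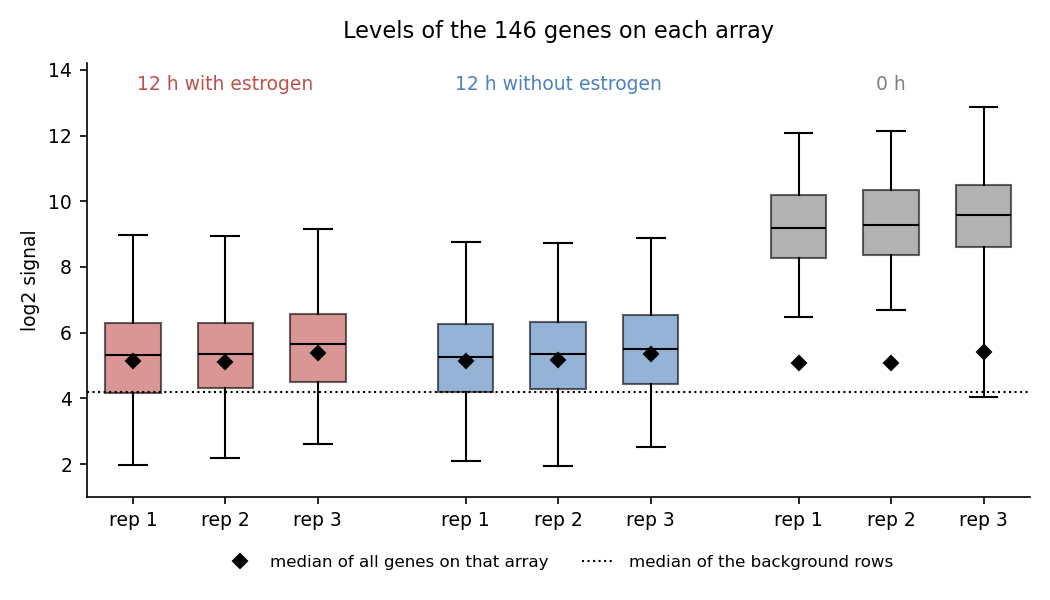
Log2 signals of the 146 genes on each of the 9 arrays, as boxes (quartiles and median) with whiskers from the lowest to the highest gene, beside the median of all genes on that array (diamonds) and the background rows' median of 4.20 (dotted line). The 6 arrays at 12 h have medians between 5.25 and 5.64, near the medians of all genes, and the 0 h arrays between 9.20 and 9.59.

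The median difference from 0 h was -3.78 with estrogen and -3.75 without it, which left 7.26% and 7.41% of the 0 h signal, a 13.8-fold and a 13.5-fold lower value. The same median over all genes was -0.0037 with estrogen and 0.0 without it. The 2 comparisons share the 0 h arrays and are not independent. Averaged over both 12 h groups, 88 genes were 3 to 4 lower, 58 were lower by 4 or more, 17 by 5 or more and 6 by 6 or more. In 144 of the 146 genes every 12 h array lay below every 0 h array, by a median gap of 2.97 between the nearest arrays. The other two were small heat shock genes, described below. Within replicate numbers, 129 genes in replicate 1, 123 in replicate 2 and 127 in replicate 3 were lower by 3 or more in both 12 h arrays, and 101 were so in every replicate. In bulk samples, fewer cells of a type and less RNA per cell cannot be told apart.

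The largest measured difference was that of AT5G56100. It gave 1.98, 2.17 and 2.66 with estrogen, 2.1, 2.05 and 2.66 without it, and 9.34, 9.13 and 9.37 at 0 h. Its 12 h arrays lay within 1 of each other and well below every 0 h array. AT5G63250 read 2.48, 2.73 and 2.75 with estrogen, 2.24, 1.95 and 2.53 without it, and 9.13, 8.87 and 9.20 at 0 h. AT1G19530, a gene known to be induced by low oxygen in Arabidopsis, read 2.997, 2.98 and 3.22 with estrogen, 3.38, 3.15 and 3.35 without it, and 9.22, 9.80 and 9.96 at 0 h. All 3 genes were below the background median of replicates 1 and 2 on every 12 h array, so neither the size nor the order of their differences is settled. AT5G24490 was at 4.54, 4.32 and 4.16 with estrogen, at 4.02, 4.53 and 4.03 without it, and at 10.14, 10.59 and 10.17 at 0 h. AT2G32150 was at 4.08, 3.78 and 4.16 with estrogen, at 4.31, 4.16 and 4.16 without it, and at 9.46, 9.41 and 9.98 at 0 h. AT1G22890 was at 5.07, 5.06 and 4.16 with estrogen, at 5.20, 5.33 and 4.16 without it, and at 10.30, 10.63 and 9.57 at 0 h. In these genes the 12 h groups lay within 0.5 of each other in mean, and both lay more than 5 below 0 h.

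The functions below are background knowledge of the genes, and the grouping into 10 roles was made after values had been seen, so it carries no test. It covers 81 of the 146 genes, and the other 65 are given without a role. All 146 were found in the RefSeq gene table, but for 129 the locus was the sole name.

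Sugar use and central carbon held 9 genes, with a median difference of -4.38 with estrogen and -4.54 without it. AT1G62660, a vacuolar invertase that splits sucrose, was at 6.39, 6.32 and 6.59 with estrogen, at 6.33, 6.58 and 6.80 without it, and at 11.24, 11.25 and 11.79 at 0 h. cwINV6, a fructan exohydrolase of the cell wall invertase family, was at 6.91, 6.89 and 7.12 with estrogen, at 6.59, 6.71 and 7.52 without it, and at 11.05, 11.06 and 11.47 at 0 h. AT1G80380, glycerate kinase, the last step of photorespiration, was at 7.02, 7.02 and 7.50 with estrogen, at 7.15, 7.42 and 7.64 without it, and at 11.37, 11.28 and 12.02 at 0 h. In each of these 3 the third sample was the highest of its group, and no 12 h array came within 3 of a 0 h array. PPDK, pyruvate orthophosphate dikinase, which makes phosphoenolpyruvate from pyruvate, differed from 0 h by -4.73 with estrogen and by -4.91 without it. Xylose isomerase (AT5G57655), which interconverts xylose and xylulose, differed by -4.42 with estrogen and by -4.54 without it, and the fructokinase-family gene AT3G59480 by -4.76 and -4.75. The sugar carriers AT1G08900 and SFP1 of the ERD6-like group, a family placed at the vacuole membrane in Arabidopsis, differed from 0 h by -4.37 and -3.62 with estrogen and by -4.60 and -3.80 without it. The ninth was AT1G18270, a ketose-bisphosphate aldolase-family gene, at -4.19 with estrogen and -4.21 without it.

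Amino acid, nitrogen and sulfur metabolism held 4 genes, with a median of -3.68 with estrogen and -3.84 without it. ALN, allantoinase, which opens the allantoin ring and so recovers nitrogen from purines, was at 8.06, 8.25 and 8.41 with estrogen, at 7.86, 7.90 and 8.20 without it, and at 11.01, 11.17 and 11.66 at 0 h. STR18, a sulfurtransferase, was at 7.01, 6.84 and 7.31 with estrogen, at 6.77, 6.88 and 6.81 without it, and at 11.02, 10.95 and 11.00 at 0 h. D2HGDH, the D-2-hydroxyglutarate dehydrogenase that passes electrons from amino acid breakdown to the respiratory chain, was at 6.56, 7.13 and 7.27 with estrogen, at 6.67, 6.88 and 7.11 without it, and at 10.06, 10.31 and 10.88 at 0 h. Means at 12 h with estrogen were above those without it in all 4 genes, by 0.11 to 0.25, none of it called by the test described below. OASA2, an isoform of the enzyme that makes cysteine from O-acetylserine, differed from 0 h by -4.01 with estrogen and by -4.14 without it.

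Lipases and alpha/beta hydrolases, enzymes of ester bonds in lipids and other substrates, held 8 genes, with a median of -3.73 with estrogen and -3.70 without it. AT2G39400 gave 4.35, 4.25 and 5.03 with estrogen, 4.36, 4.10 and 5.61 without it, and 9.94, 10.03 and 10.91 at 0 h. AT5G18630, of a lipase family, gave 7.30, 7.52 and 7.43 with estrogen, 7.55, 7.67 and 7.54 without it, and 10.80, 10.74 and 11.67 at 0 h. AT5G25770 gave 6.33, 6.43 and 6.96 with estrogen, 6.26, 6.34 and 6.38 without it, and 9.78, 9.84 and 10.50 at 0 h. No 12 h array of these overlapped with 0 h, and AT2G39400 had the largest difference of the group. Its neighbour on the chromosome, AT2G39410, encodes a similar hydrolase and differed from 0 h by -3.92 with estrogen and by -3.90 without it. The patatin-related AT5G43590 differed from 0 h by -3.62 with estrogen and by -3.68 without it, and the GDSL-family AT1G09390 by -4.23 and -4.07.

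Oxidases and specialised metabolism held 9 genes, with a median of -3.92 with estrogen and -4.25 without it. AT1G30720, a berberine bridge enzyme-like oxidase, was at 6.30, 6.06 and 5.66 with estrogen, at 5.55, 6.33 and 5.90 without it, and at 11.65, 11.52 and 12.17 at 0 h. The adjacent gene AT1G30730, of the same family, was at 5.05, 5.26 and 2.77 with estrogen, at 5.34, 5.72 and 2.89 without it, and at 10.04, 10.43 and 8.23 at 0 h. The third sample of AT1G30730 was the lowest in every group, so that its difference within replicate 3 (-5.46 with estrogen and -5.34 without it) stayed near that in replicates 1 and 2 (-5.08 and -4.71). AT2G25450, a dioxygenase that modifies glucosinolate side chains, was at 6.30, 6.43 and 7.26 with estrogen, at 6.43, 6.89 and 6.93 without it, and at 11.65, 11.51 and 11.45 at 0 h. CCOAMT, a caffeoyl-CoA methyltransferase of phenylpropanoid metabolism, was at 5.86, 5.95 and 6.09 with estrogen, at 5.61, 5.72 and 5.30 without it, and at 10.70, 10.73 and 10.55 at 0 h. Every 12 h array of both lay more than 4 below every 0 h array. AT1G12010, an ACC oxidase, the enzyme that makes ethylene, differed from 0 h by -3.84 with estrogen and by -3.66 without it. The related oxygenases AT1G06620, AT1G06650 and AT5G59530 differed from 0 h by -3.25, -3.04 and -3.92 with estrogen and by -3.30, -3.44 and -4.25 without it. The last of the 9, AT5G49690 of the UDP-glycosyltransferase family, differed by -3.59 with estrogen and by -3.44 without it.

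Protein turnover held 10 genes, 7 for proteins of ubiquitin ligases or with their domains and 3 for proteases, with a median of -3.59 with estrogen and -3.64 without it. AT1G35625, a RING-type protein, was at 3.83, 3.25 and 3.97 with estrogen, at 3.15, 3.95 and 3.39 without it, and at 9.83, 9.86 and 9.87 at 0 h. The 0 h arrays lay within 0.1 of each other, and all 6 arrays at 12 h were below the background median. AT4G16190, a papain-like cysteine protease, had the highest 0 h mean of all members (12.26) and stayed bright, at 8.41, 8.54 and 9.17 with estrogen, at 8.30, 8.27 and 8.77 without it, and at 12.09, 11.83 and 12.87 at 0 h. AT5G19120, of the aspartyl protease family, was at 5.74, 5.66 and 5.42 with estrogen, at 5.85, 5.84 and 5.27 without it, and at 10.44, 10.46 and 10.54 at 0 h. SBT5.4, a subtilase, differed from 0 h by -3.22 with estrogen and by -3.36 without it. The F-box genes SKP2A, which acts on cell cycle factors, and AT5G27920 differed from 0 h by -3.17 and -3.09 with estrogen and by -3.24 and -3.51 without it.

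Cell wall and apoplast held 5 genes, with a median of -3.35 with estrogen and -3.46 without it. AT2G15880, a leucine-rich repeat extensin, was at 3.96, 3.32 and 4.35 with estrogen, at 3.46, 3.66 and 4.61 without it, and at 8.87, 8.66 and 9.20 at 0 h. AT2G43610, of the chitinase family, was at 8.34, 8.36 and 7.47 with estrogen, at 8.23, 8.17 and 7.23 without it, and at 11.46, 11.51 and 11.04 at 0 h. AT3G10320, a glycosyltransferase, was at 3.81, 3.91 and 4.48 with estrogen, at 3.80, 4.28 and 4.34 without it, and at 7.65, 7.80 and 8.35 at 0 h. The extensin and the glycosyltransferase were thus near the background median at 12 h, whereas the chitinase kept a signal above 7 on every array. The pectin methylesterase AT5G51490 and the glycosyl hydrolase AT3G04010 differed from 0 h by -3.35 and -3.19 with estrogen and by -3.17 and -3.11 without it.

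Other transporters and metal-binding proteins held 8 genes, with a median of -3.63 with estrogen and -3.65 without it. AT1G29100, a heavy metal-associated domain protein, was at 6.34, 6.19 and 6.78 with estrogen, at 6.36, 5.91 and 6.72 without it, and at 11.70, 11.79 and 12.46 at 0 h. AT5G14940, a carrier of the nitrate and peptide transporter family, was at 7.19, 7.17 and 7.29 with estrogen, at 7.59, 7.52 and 7.90 without it, and at 10.90, 10.91 and 11.55 at 0 h. AT2G36950, another metal-binding domain protein, was at 6.27, 6.37 and 6.67 with estrogen, at 6.48, 6.21 and 6.15 without it, and at 10.18, 10.35 and 10.22 at 0 h. The estrogen arrays of AT5G14940 lay below all 3 arrays without estrogen, a difference of -0.45 that did not pass the test. AT5G46040, of the same carrier family, differed from 0 h by -4.79 with estrogen and by -4.21 without it. The organic cation carrier OCT4 was the gene nearest to the rule's limit, at -3.01 with estrogen and -3.03 without it.

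Receptors, kinases and defence held 11 genes, with a median of -3.54 with estrogen and -3.65 without it. AT1G78830, of the mannose-binding lectin family, was at 3.40, 3.83 and 3.90 with estrogen, at 4.31, 4.56 and 3.81 without it, and at 9.67, 9.68 and 9.66 at 0 h. PDF1.4, a defensin, was at 7.26, 7.49 and 6.97 with estrogen, at 7.36, 7.26 and 7.04 without it, and at 11.67, 11.31 and 11.22 at 0 h. These 2 genes differed in what remained, since the lectin gene lay near the background median at 12 h and the defensin gene did not. AT4G13190, a protein kinase, was at 6.89, 6.78 and 7.92 with estrogen, at 7.11, 7.13 and 7.92 without it, and at 10.74, 10.62 and 10.86 at 0 h. AT1G78780, of a pathogenesis-related family, was at 6.33, 6.42 and 6.55 with estrogen, at 6.75, 7.08 and 6.46 without it, and at 9.68, 9.69 and 10.21 at 0 h. Resistance genes of the TIR-NBS-LRR class, which sense pathogens inside the cell, were AT5G38350 and AT5G38850, with differences of -3.50 and -3.29 with estrogen and of -3.65 and -3.10 without it.

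Transcription and light held 7 genes, with a median of -3.71 with estrogen and -3.56 without it. AT1G32700, a PLATZ zinc-binding factor, was at 3.85, 4.32 and 4.14 with estrogen, at 4.29, 4.50 and 4.24 without it, and at 9.47, 9.55 and 9.57 at 0 h. AT4G28790, a basic helix-loop-helix factor, was at 5.64, 5.95 and 5.85 with estrogen, at 5.58, 5.71 and 5.99 without it, and at 9.47, 9.69 and 9.75 at 0 h. AT3G12977, a NAC factor, was at 5.49, 5.52 and 5.31 with estrogen, at 5.34, 5.45 and 5.31 without it, and at 8.69, 8.68 and 9.28 at 0 h. In all 3 the arrays of a group lay within 0.7 of each other. Although the cells grew in the dark, the antenna protein gene LHCB4.1 of photosystem II was among them, at 3.98, 3.89 and 4.01 with estrogen, at 3.69, 3.97 and 3.82 without it, and at 8.20, 8.52 and 8.21 at 0 h. FHL, which helps bring the light receptor phytochrome A into the nucleus, differed from 0 h by -3.47 in both groups.

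Stress protection held 10 genes, with a median of -3.97 with estrogen and -4.05 without it. AT4G37220, of a cold acclimation membrane protein family, was at 4.10, 4.40 and 4.51 with estrogen, at 4.74, 5.10 and 4.44 without it, and at 10.38, 10.60 and 10.92 at 0 h. AT2G03850, of the late embryogenesis abundant family known from drying seeds, was at 5.33, 5.53 and 6.65 with estrogen, at 5.33, 5.93 and 6.62 without it, and at 9.78, 9.98 and 10.19 at 0 h. AT3G53990, a universal stress protein, was at 6.53, 6.43 and 6.43 with estrogen, at 6.62, 6.63 and 6.66 without it, and at 9.89, 9.82 and 10.07 at 0 h. The difference was largest in AT4G37220, at -6.30 with estrogen and -5.87 without it. The dehydrin AT1G54410 differed from 0 h by -4.30 in both groups, and COR27, a cold-regulated gene that also acts in the clock, by -3.79 in both. AT4G25580, of a cold and drought protein family, differed by -4.72 in both, and the zinc finger gene AT2G36320 by -3.51 with estrogen and by -3.73 without it. The other 3 genes of the role, AT2G29500, AT1G52560 and AT5G37670, encode small heat shock proteins, which keep unfolding proteins from clumping.

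The 65 genes without a role had means of 2.27 to 8.91 with estrogen, 2.24 to 8.76 without it and 7.58 to 12.09 at 0 h, and a median difference of -3.76 with estrogen and -3.62 without it. The brightest of them at 0 h, AT3G51730, was at 8.97, 8.93 and 8.84 with estrogen, at 8.77, 8.72 and 8.80 without it, and at 12.08, 12.13 and 12.06 at 0 h. Its arrays differed by less than 0.2 within each group, and no 12 h array came within 3 of a 0 h array.

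**Figure D2:**
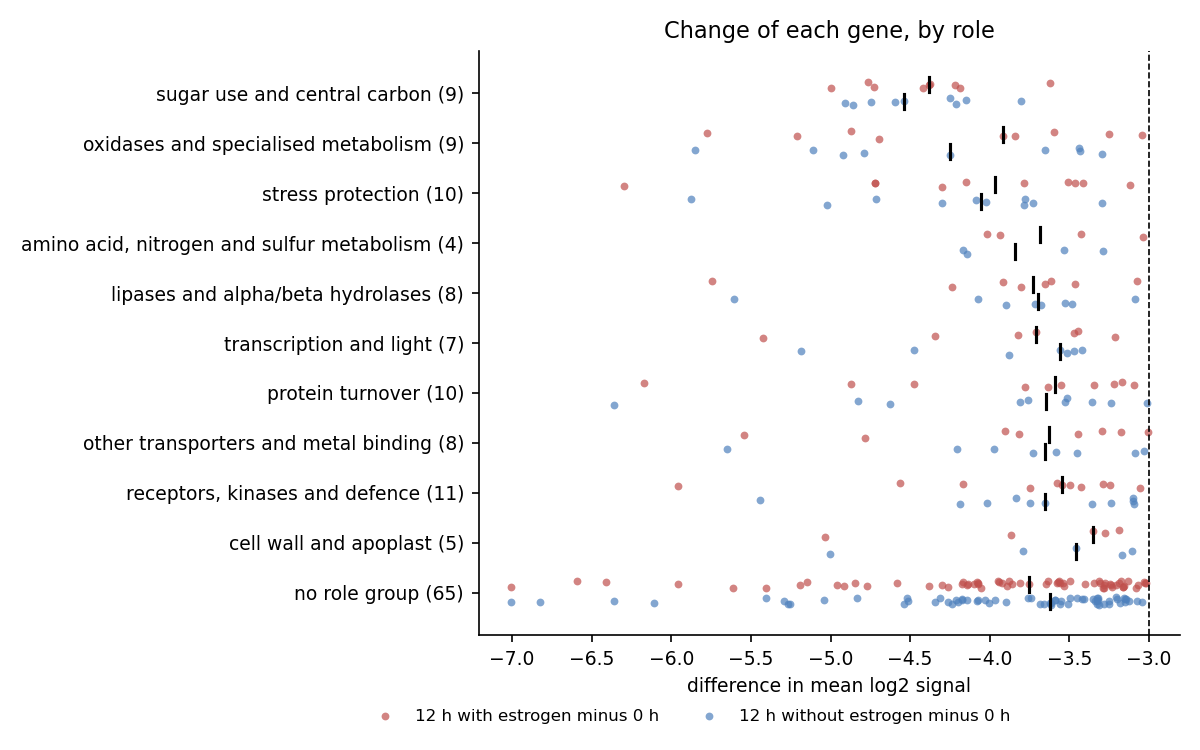
Difference in mean log2 signal from 0 h for each of the 146 genes, with estrogen (upper points) and without it (lower points) in each role, with the number of genes in brackets and black bars at the medians. The dashed line at -3 is the limit that chose the genes, so no point can lie right of it. Sugar use and central carbon has the largest median difference of the roles.

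The heat shock genes were bright in only 2 of the 3 samples at 0 h. AT2G29500 read 4.89, 5.07 and 5.57 with estrogen, 5.12, 4.52 and 3.92 without it, and 10.51, 10.34 and 4.05 at 0 h. AT1G52560 read 6.18, 5.62 and 5.67 with estrogen, 5.05, 4.91 and 5.50 without it, and 11.39, 11.26 and 5.07 at 0 h. AT5G37670 read 4.02, 4.40 and 3.50 with estrogen, 3.85, 3.65 and 3.50 without it, and 10.58, 10.89 and 4.60 at 0 h. In all 3 the 0 h array of replicate 3 was more than 6 below the mean of the other two, near the level of the 12 h arrays. In replicates 1 and 2 the mean difference from 0 h was -5.44 with estrogen and -5.61 without it for AT2G29500, -5.42 and -6.34 for AT1G52560, and -6.53 and -6.99 for AT5G37670. Within replicate 3 the difference from 0 h was 1.53 with estrogen and -0.12 without it for AT2G29500, 0.60 and 0.43 for AT1G52560, and -1.11 in both for AT5G37670. In replicate 3 none of the 3 genes began at 7 or fell by 3, so all 3 met the rule through replicates 1 and 2 alone.

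In 11 of the 146 genes (7.53%) the 0 h array of replicate 3 lay 1 or more below the mean of the other two, against 2.02% of genes with a 0 h mean of 7 or more. Besides the 3 heat shock genes they included AT1G72416 (9.93, 9.93 and 6.55 at 0 h), the U-box gene AT5G18340 (9.61, 9.86 and 7.29) and the F-box gene AT3G17400, which was at 7.43, 7.15 and 6.76 with estrogen, at 7.30, 7.38 and 6.99 without it, and at 11.78, 11.72 and 8.74 at 0 h. Within replicate 3, AT1G72416 differed from 0 h by -0.82 in both groups. AT4G17250 differed there by -0.99 with estrogen and -1.05 without it, AT3G17400 by -1.97 and -1.75, and AT4G23493 by -1.88 and -2.19. AT3G10020 (-2.28 and -2.43) and AT5G18340 (-2.48 and -2.66) were also short of 3 there. AT1G30730 (-5.46 and -5.34) and AT1G54410 (-4.89 and -4.79) were not. A further 15 genes (10.3%, against 3.55%) had a higher 0 h array of replicate 3 by 1 or more, led by AT2G31945 with 6.87, 6.93 and 8.94. The other 120 lay within 1. Without the 0 h array of replicate 3 the same selection, with the same names set aside, gave 137 genes, of which 121 were among the 146. Heat shock genes outside the 146 were listed after these values had been seen: of 26 loci, 12 were measured, and in 9 of them the 0 h array of replicate 3 was lower by 1 or more, against 1.74% of all genes. Their median difference of the third from the other two 0 h samples was -2.54 over the 12. The part of the third 0 h sample in these genes' differences with time was not tested.

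**Figure D3:**
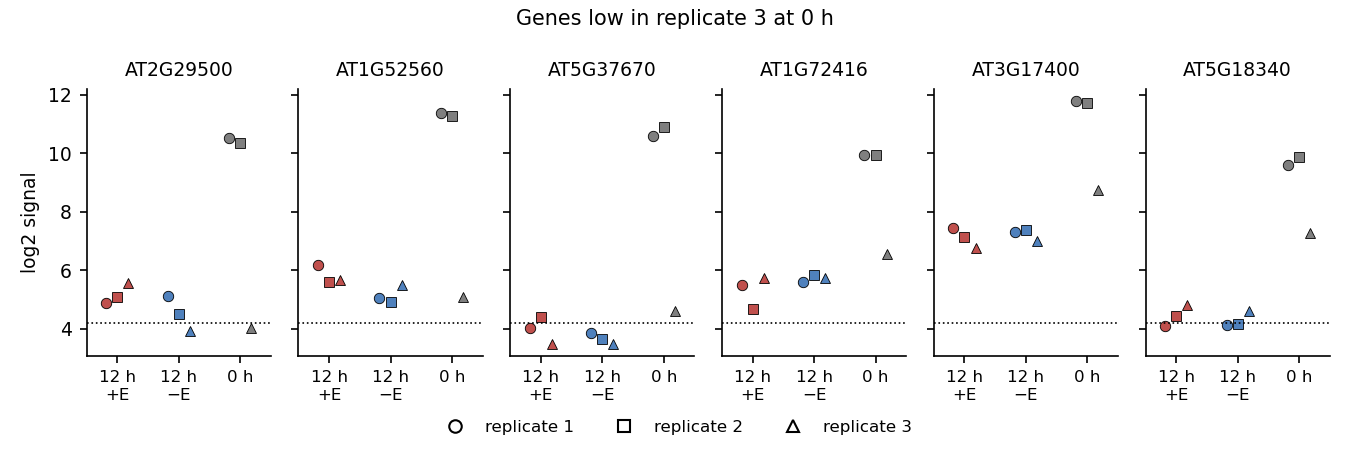
Log2 signals on each array of 6 genes in which replicate 3 at 0 h (grey triangle) was at least 2 below the first 2, with estrogen (+E), without estrogen (−E) and at 0 h. AT4G23493, AT4G17250 and AT1G30730, not shown, were also lower there by 2 or more than the mean of the first 2. The dotted line is the background rows' median of 4.20. In AT2G29500 and AT1G52560 the grey triangle lies among the 12 h values.

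The comparison of the 12 h groups asked whether these genes differed with estrogen at equal time in culture, where estrogen, LHW and T5L1 act together. It did not choose the genes, although the rule did bound both 12 h means. None of the 146 was called by limma at an adjusted p under 0.05, where 15 of 38310 probe sets, or 0.0392%, were called. At an unadjusted p under 0.05 there were 5 of the 146 (3 higher and 2 lower), against 2.23% of probe sets. The differences ran from -0.87 to 0.95 with a median of 0.02 (all genes 0.01), 79 genes being higher and 67 lower in mean with estrogen. Of the 146, 107 (73.3%) were within 0.25 of 0 and 135 (92.5%) within 0.5, against 86.7% and 97.1% of all genes. Equal replicate 3 values draw such differences towards 0. They were absent in 136 of the 146 and in 9478 of the 16548 genes, so these shares are not a like comparison. The median SE was 0.27 (0.14 to 1.44), so small differences could not be resolved for most of these genes. This SE pools the spread of all 3 groups, 0 h included. The highest was that of AT2G29500, whose SD was 3.68 at 0 h but 0.35 with estrogen and 0.60 without it. In the 27 genes below the background median in both 12 h groups on replicates 1 and 2, background could also hide a difference.

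The 12 h groups did not overlap for 15 of the 146 (10.3%), 8 higher and 7 lower with estrogen, against 3.37% of all genes. Genes with equal replicate 3 values cannot show such a gap, and among genes without them the shares were 11.0% of 136 members and 5.89% of genes. The smallest p belonged to AT1G10140, with 5.52, 5.74 and 6.02 with estrogen, 5.09, 5.31 and 5.16 without it, and 8.59, 8.66 and 9.09 at 0 h. Its difference was 0.57 (SE 0.20, limma unadjusted p = 0.0185, adjusted p = 1.0), and the arrays of the 12 h groups did not overlap. The locus AT1G69890 gave 4.53, 4.36 and 4.22 with estrogen, 5.63, 5.46 and 4.62 without it, and 8.20, 8.12 and 9.01 at 0 h. Its difference was -0.87 (SE 0.32, limma adjusted p = 1.0), again with no overlap. With array weights it was the 1 member called (difference -1.10, SE 0.17, adjusted p = 0.0207), and over 18 alternatives its adjusted p ran from 0.0207 to 1.0. AT5G25930, a leucine-rich repeat receptor kinase, gave 4.71, 4.57 and 5.77 with estrogen, 4.40, 4.16 and 4.41 without it, and 8.28, 8.15 and 7.78 at 0 h, a difference between the 12 h groups of 0.69 with no overlap, which was 0.32 without replicate 3 with estrogen and ran from 0.32 to 0.92 over 18 alternatives. The other two of the 5 smallest p-values were those of CCOAMT (0.42 with estrogen minus without) and the lectin gene AT1G78830 (-0.52), whose array values are given above. Their limma adjusted p was 1.0 as well, and the arrays of AT1G78830 overlapped.

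**Figure D4:**
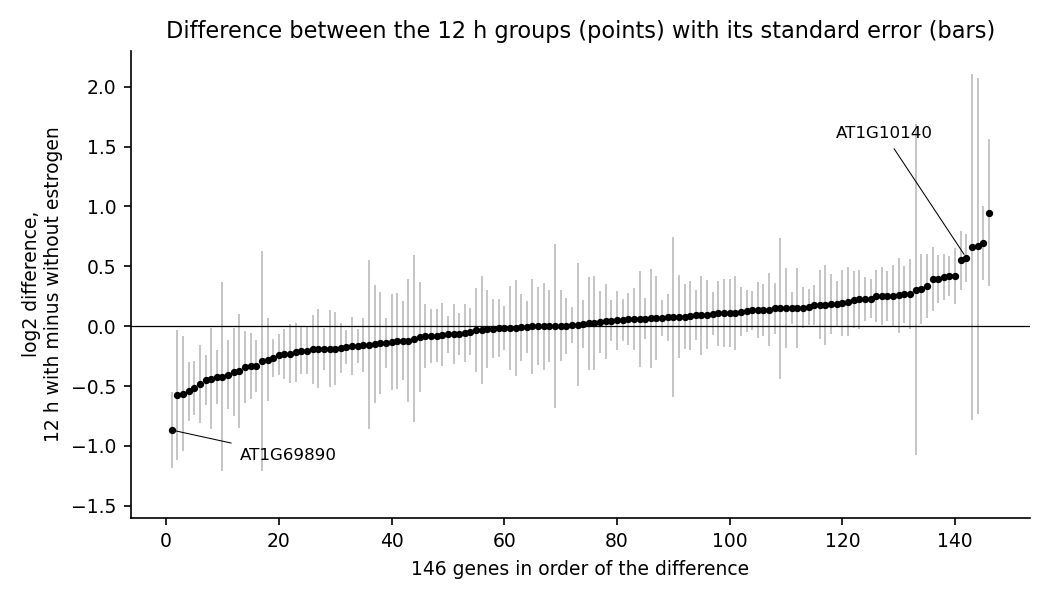
Difference in log2 signal between cells with and without estrogen at 12 h for each of the 146 genes (points, in order), with its standard error from limma (bars). The standard errors pool the spread of all 3 groups, 0 h included. The differences run from -0.87 to 0.95, and none passed the adjusted threshold.

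Values lay close together on both sides of the thresholds. Just inside the limit of 3 were OCT4 (-3.01 with estrogen and -3.03 without it), AT3G18930 (-3.35 and -3.01) and AT1G10140 (-3.02 and -3.59). Just outside were AT4G38810 (-2.99 and -3.24), AT5G44572 (-2.98 and -3.19) and AT5G48175 (-2.98 and -3.17). At the limit on the 0 h mean, GT2, a trihelix factor (7.08), JAL33, a jacalin-related lectin (7.16), and AT3G04010 (7.36) were inside. AT3G19010 (6.99), AT3G21352 (6.94) and AT1G02610 (6.93) were outside. In all, 21 genes were lower by 3 or more in both groups but began below 7.

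Members lay next to each other on the chromosome in 2 pairs, AT1G30720 with AT1G30730 and AT2G39400 with AT2G39410. A further pair joined SKP2A to AT1G21400, a branched-chain keto acid dehydrogenase subunit that met the thresholds and was set aside. Of 180 measured neighbours that had not met the thresholds, 33 (18.3%) were called lower by limma in both 12 h groups, against 12.5% of all genes, and 22 (12.2%) higher in both, against 15.3%. With the replicate number as a block these were 43 (23.9%, against 17.5%) and 33 (18.3%, against 20.8%). Such shares are not given under other normalizations, which moved the balance of calls over all probe sets (last section). The median gene span was 1953 bases in the members and 1912 over all genes.

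Genes of 16 lists on starvation, stress and cell type gave context (161 loci, of which 32 were measured). They were written with earlier results of these data known and were not tested as lists. None of the 32 was called between the 12 h groups. Among genes in general, 13.6% were called lower with estrogen and 13.6% without it, and 16.5% and 16.4% higher. The balance of higher and lower calls depended on normalization, as given in the last section. The list named for branched-chain amino acid breakdown had 8 of 18 loci measured. D2HGDH, placed in that list as a gene that passes on electrons from amino acid breakdown in general, is one of the 146. A further 2 met the thresholds and were set aside by name, MCCB (-4.04 with estrogen and -4.00 without it) and AT1G21400 (-6.68 and -6.92). These 3 were chosen by their differences and are not counted. The other 5 were all called lower in both comparisons, with a median of -2.68 with estrogen and -2.72 without it. They included ETFQO, which hands electrons from this pathway to ubiquinone, at 8.86 ± 0.05 with estrogen, 8.80 ± 0.02 without it and 11.56 ± 0.21 at 0 h (SD, n = 3 each; limma adjusted p = 5.29e-06 and 4.96e-06). ALDH6B2, a dehydrogenase late in valine breakdown, was at 8.39 ± 0.09 with estrogen, 8.35 ± 0.11 without it and 11.06 ± 0.15 at 0 h (limma adjusted p = 5.19e-06 and 4.96e-06). Both fell by less than the limit of 3.

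Other amino acid breakdown had 2 genes measured, both called lower. AT4G33150, of lysine breakdown, was lower in both, at -2.98 (SE 0.38, limma adjusted p = 0.000261) with estrogen and -3.09 (SE 0.38, limma adjusted p = 0.000221) without it. In starch breakdown 1 of 3 was called lower, AMY1, an alpha-amylase, with a difference of -2.74 with estrogen and -2.85 without it (SE 0.52). With the replicate number as a block PWD, a kinase of starch, was also called (limma adjusted p = 0.00159 and 0.00119). In fatty acid beta-oxidation and the glyoxylate cycle 1 of 2 was called lower, AIM1, with a difference of -1.16 with estrogen and -1.26 without it (SE 0.24). With the block ICL, isocitrate lyase, was called too (limma adjusted p = 0.0331 and 0.0201). Of 5 genes of the SnRK1 energy-sensing kinase and its bZIP partners, 3 were lower in both comparisons, while 2 with estrogen and 1 without it were higher. With the block AT2G28060 was higher without estrogen as well (limma adjusted p = 0.0016). AKINBETA1, a subunit of that kinase, was called lower, at -2.39 with estrogen and -2.40 without it (SE 0.23).

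Of 6 low oxygen genes measured, AT1G19530 was chosen by its difference and is not counted. Of the other 5, none was called lower, and AT5G10040 was called higher without estrogen (1.26, SE 0.31, limma adjusted p = 0.00917). The remaining 4 were not called in either comparison. Of the green leaf markers 1 of 7 was measured, RCA, the activase of the carbon-fixing enzyme, at 4.97 ± 0.31 with estrogen, 4.72 ± 0.50 without it and 7.92 ± 0.35 at 0 h, and it was called lower in both (limma adjusted p = 6.85e-05 and 4.39e-05). The 3 measured root hair markers EXPA7, EXPA18 and GH9C1 averaged 3.16 to 4.01 in every group, below the background median, and none was called. SAG101, the 1 measured senescence gene, was not called, and EXO, the 1 measured exordium gene, was called higher without estrogen (2.32, SE 0.76, limma adjusted p = 0.0369), and with the block also with estrogen (1.67, limma adjusted p = 0.000333). Dark-inducible, trehalose, sugar transport, phosphate, nitrate and tracheary element lists had no gene with a probe set of its own here and were not analysed.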

How the data were processed

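RNA of 9 samples was hybridised to 1 Affymetrix array each. The authors deposited log2 signals per probe set, and the submitters' processing notes name Affymetrix Expression Console 1.3. How signals were summarised and normalized is not given in the sources used here. Of 38506 rows, 38310 probe sets were filled on every array and were used as deposited. The other 196 were control rows filled on part of the arrays. The platform annotation named 1 gene for 16722 probe sets, several for 759 and none for 20829. The probe set with the highest mean stood for a gene, which gave 16548 genes. Names and neighbours came from a RefSeq table of TAIR10.1.

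Group means were fitted in a linear model with limma 3.58.1 in R 4.3.3 (lmFit, eBayes, two-sided, Benjamini-Hochberg over 38310 probe sets, call at an adjusted p under 0.05) and tested on simulated data. Array numbers limit the precision. Arrays of the same replicate number correlated in their deviations from group means (r = 0.173 to 0.616, all above 0.1), which was taken as pairing. The reported fit held no term for it, and the replicate block was run as an alternative only. That pairing rests on replicate 3 (r of 0.445 or more). Between replicates 1 and 2, arrays of unlike number correlated to a like degree (r = 0.156 to 0.277), so these values do not show that numbers 1 and 2 are paired.

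The genes, lists and tests were chosen with earlier results of these data known. Full array values are given for the 12 largest differences, the 3 genes brightest at 0 h in each role, the 5 smallest p-values with estrogen and LHW, with values at the thresholds. Heat shock genes were added after their values were seen, as were LHCB4.1, AT1G30730, AT3G51730 and the genes set out for their 0 h array of replicate 3. Promoter and protein sequences were not analysed here. Alternatives were the replicate block, a block of replicate 3 against the others (a split seen in the values, which no label names as a batch), replicates 1 and 2 only, quantile normalization, median centring, a filter on dim probe sets, an intensity trend, array weights, a fit of the compared groups only, other thresholds and leaving out each array. Plots used Python 3.11.15 and matplotlib 3.10.9.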

Additional observations from a re-analysis of the deposited data

How the results depend on the processing

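None of the 146 genes was called between the 12 h groups by limma under 17 of 18 alternatives, the replicate block and all omissions of an array among them; array weights called 1, AT1G69890 (difference -1.10). The count over all probe sets, 15 and all higher as reported, was 23 with the replicate block (20 higher and 3 lower), 40 with replicate 3 against the others as a block, 69 in replicates 1 and 2 only (30 higher and 39 lower) and 608 with array weights (218 higher and 390 lower), and ran from 11 to 95 when each array was left out, 95 being without replicate 3 of the cells without estrogen (22 higher and 73 lower). The cause was not tested. The number of genes selected, 146 as reported with genes set aside by name, was 197 with quantile normalization and 231 with median centring. It was 359 with a limit of 2 and 53 with a limit of 4, and ran from 137 to 162 when each array was left out. In replicates 1 and 2 only it was 139, of which 124 were among the 146. The median difference from 0 h with estrogen was -4.10 with quantile normalization and -4.30 with median centring. Without estrogen it was -4.03 and -4.22. Array medians over all probe sets were 5.81 to 6.21 with estrogen, 5.83 to 6.09 without it and 5.28 to 5.67 at 0 h, a shift that centring removes. Against 0 h without estrogen, probe sets called higher and lower were 10501 and 4562 as reported. They were 8966 and 8184 with quantile normalization, and 7981 and 12637 with median centring. With estrogen the counts were 10789 and 4490 as reported, 9131 and 8412 with quantile normalization, and 8050 and 14022 with median centring. The direction with more calls thus changed with median centring. Leaving out each array gave -3.59 to -3.89 with estrogen and -3.56 to -3.87 without it. For the list genes and LHW the replicate block kept 87 outcomes, lost 0 calls and gained 6, given beside those genes. The 23 background rows spread from 1.08 to 8.20, so levels near 4.20 are not shown to be clear of background.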
